A study of Mus musculus with 8 samples.

Results

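Chemokines are small secreted proteins that direct the movement of leukocytes and progenitor cells, and the genes of this family and of its receptors were followed here in mouse osteoblast progenitor cultures. A gene was taken as a member if its symbol named a C-C or C-X-C motif ligand (Ccl or Cxcl with a number), Cx3cl1, a numbered Ccr or Cxcr receptor, Ccrl2, or 1 of the atypical chemokine receptors Ackr1 to Ackr4. This gave 58 members of 51822 gene symbols in the files. The choice used names and no measured value. RNA was sequenced from cells kept in osteogenic medium (alpha-MEM with 10% FBS, beta-glycerophosphate at 10 mM, ascorbic acid, and dexamethasone at 10 nM) for 7 or 14 days, with either DMSO, the control, or 1 uM LAMZ. LAMZ (locamidazole) is an aminoindazole derivative that was studied as an inducer of osteoblast differentiation. Each of the 4 groups, day 7 control, day 7 LAMZ, day 14 control and day 14 LAMZ, had 2 libraries, so that all 8 shared the medium and differed in the compound and the day. The value column of day 7 LAMZ replicate 1 is not headed with the name LAMZ, unlike those of the other LAMZ libraries, and its group rests on GEO's label. GEO's labels name MC3T3-E1, a line of mouse calvarial pre-osteoblasts, whereas the study's methods describe cells isolated from the calvariae of newborn mice. No source states whether the libraries of a group came from separate cultures, so the p-values measure the spread between these libraries, which may be technical.

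Most chemokines act through receptors with 7 passes of the membrane that couple to inhibitory G proteins, while the atypical receptors bind and remove chemokines without G protein signalling. In bone, cells of the mesenchymal lineage are known sources of Cxcl12, which holds hematopoietic cells in the marrow through Cxcr4, whereas Ccl3, Ccl4, Ccl6, Ccl9 and Ccl12 are typical products of macrophages and other myeloid cells. The members were therefore grouped by their textbook roles into stromal ligands (8 members), macrophage ligands (12), interferon-induced ligands (4), lymphoid and epithelial ligands (13), receptors of monocytes and macrophages (5), receptors of lymphocytes and granulocytes (12) and atypical receptors (4).

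Values were RPKM, the reads of a gene divided by the length of its transcripts and by the mapped reads of the library, so levels of different genes can be compared. The step between low values gave 3463357 to 5832036 mapped reads per library, and from it the reads behind single members were recovered. For Ccl19, Ccl25, Ccl28, Cxcl1, Cxcl2, Cxcl10, Cxcl14, Ccr6 and Ccr9 the length was fitted to the values, and the reads given are the fewest these allow. A gene listed at 0 had no read in that library, a count that allows an expected count of up to 3 reads. Osteoblast and mesenchyme markers were present throughout, with 19 of 19 at 1 RPKM or more in every library, among them Col1a1, the main collagen of bone. Of 21 macrophage markers 19 were in the files. Their summed level was 498 to 657 RPKM in the day 7 control libraries and 1259 to 1273 RPKM in the day 14 control libraries. It was 8.20 to 9.97 RPKM with LAMZ at day 7 and 7.85 to 8.86 RPKM with LAMZ at day 14. C1qa, C1qb, C1qc, Tyrobp, Laptm5, Ctss and Mpeg1 were listed at 0 in all 4 LAMZ libraries. In bulk RNA, fewer cells of a type and less RNA per cell cannot be told apart. Summed neutrophil, lymphocyte and mast cell markers reached at most 1.12, 3.28 and 0.422 RPKM in a library, the second of these in day 14 control replicate 1. Endothelial markers summed to 1.59 to 2.89 RPKM in the control and 0.812 to 0.931 RPKM in the LAMZ libraries, and osteoclast markers to 88.4 to 123 RPKM over all 8. Nearly all of the osteoclast sum was Ctsk (85.0 to 119 RPKM), followed by Acp5 (2.94 to 6.01 RPKM). Calcr, Ocstamp, Dcstamp and Oscar reached at most 0.287 RPKM, and Atp6v0d2 at most 1.03 RPKM, in day 14 control replicate 1.

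Of the 58 members, 18 reached 1 RPKM in at least 2 libraries and could be tested. Another 33 were above 0 in some library without passing this filter, and 7 (Ccl20, Ccl26, Ccl27b, Cxcl3, Cxcl17, Ccr8 and Cxcr1) were listed at 0 in every library. The 18 were tested with limma on log2(RPKM + 1) together with all 12514 genes that passed the filter, and Benjamini-Hochberg adjusted p-values were taken over all of them. Fold changes from this fit understate the change of low genes. For a member that passed the filter only through its control libraries, the filter itself favoured lower values with LAMZ.

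At day 7, 8 of the 18 tested members were lower with LAMZ at an adjusted p under 0.05, where 8.49% of all tested genes were lower. None was higher by limma, and 0 were at an unadjusted p under 0.05, where 4.35% of all tested genes were higher. At day 14, 13 of the 18 were lower, where 16% of all tested genes were lower, and 1 was higher, where 6.96% of all tested genes were. In either direction, 12.8% of all tested genes passed at day 7 and 23% at day 14. Of the lower members, 5 at day 7 (Ccl2, Ccl3, Ccl5, Ccl6 and Ccl9) and 9 at day 14 (these with Ccl4, Ccl8, Ccl12 and Cxcl16) stayed under 1 RPKM in every LAMZ library and passed the filter through control libraries only, so their counts are a description and cannot be read against the share of all genes. The median log2 fold change over the tested members was -0.89 at day 7 and -1.97 at day 14, and that over all tested genes was -0.08 and -0.15. The 7 members lower on both days were Cxcl12, Ccl2, Ccl7, Ccl3, Ccl6, Ccl9 and Ccl5, where 6.11% of all tested genes were lower on both days. All libraries with LAMZ lay below all control libraries of the same day for 14 of the 18 members at day 7, where this held for 35.9% of all tested genes, for 15 at day 14 (44.2%), and for 12 on both days (23.7%). The reverse held for 0 members at day 7 (20.4% of all tested genes) and for 1 at day 14 (20.1%). Of the 18, 10 passed the filter through control libraries only. The medians, the 7 members lower on both days and these overlap counts are thus also a description. None can be read against all tested genes. The stromal ligands gave 4 of the 8 lower members at day 7 and 4 of the 13 at day 14, and the macrophage ligands 3 and 7. The plot of all tested members by library shows these groups side by side.

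**Figure D1:**
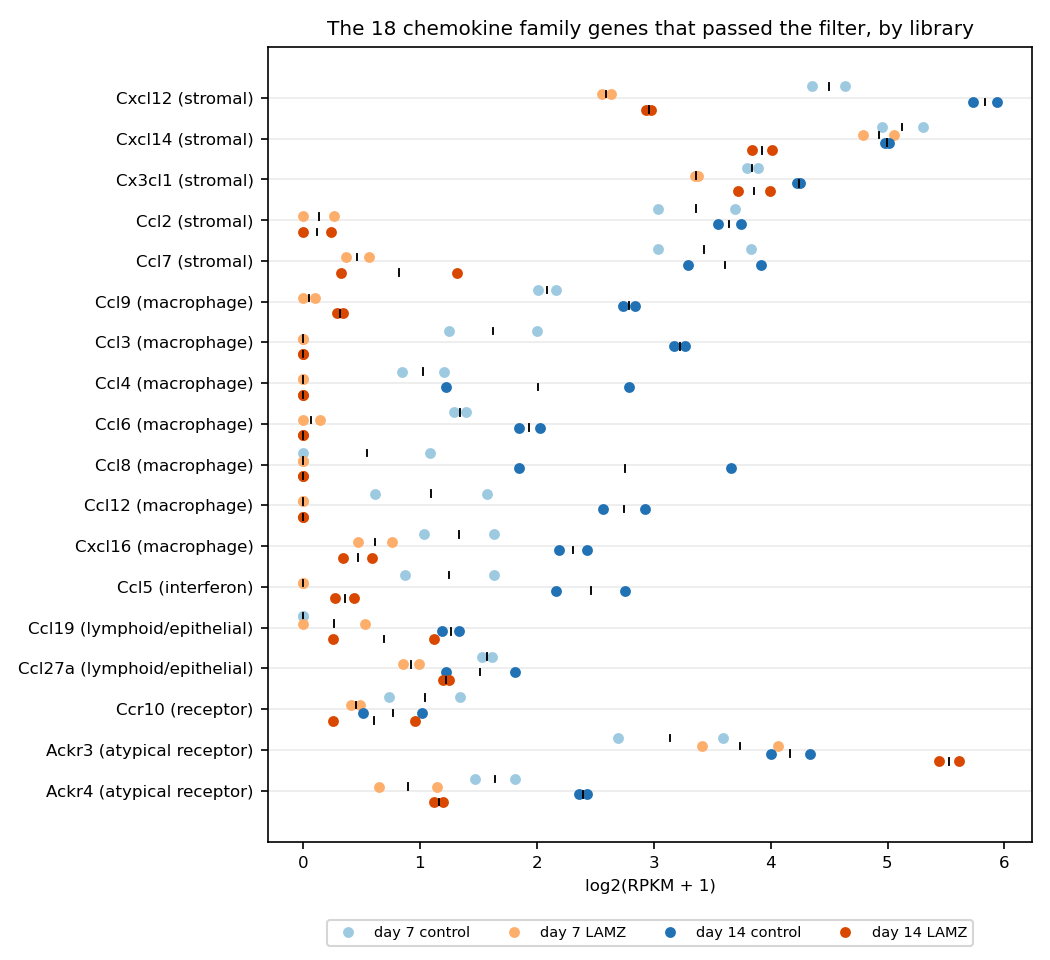
Expression of the 18 tested members, as log2(RPKM + 1), with 1 point per library and a black tick at the mean of each group of 2 libraries; members are ordered by role. Ccl3, Ccl4, Ccl8 and Ccl12 sit at 0 in all 4 LAMZ libraries, while Cxcl12, Cxcl14, Cx3cl1 and Ackr3 stay above 2 on this scale in every library.

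Cxcl12 was the stromal ligand with the largest loss of reads and stayed well above 0 with LAMZ. At day 7 it stood at 23.9 and 19.5 RPKM in the control libraries and at 5.22 and 4.88 RPKM in the LAMZ libraries. At day 14 the control values were 60.3 and 52.0 RPKM and the LAMZ values 6.90 and 6.64 RPKM. The groups did not overlap on either day, and the libraries within each group lay close together. The fitted log2 fold change was -1.90 ± 0.14 (SE, adjusted p = 0.000193) at day 7 and -2.88 ± 0.14 (adjusted p = 1.37e-05) at day 14. Counted in reads, Cxcl12 had 4.33-fold (95% interval 3.87 to 4.86) and 8.34-fold (7.65 to 9.10) fewer reads per mapped read with LAMZ, intervals that cover counting error only.

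Cxcl14, a C-X-C ligand of epithelium and stroma that attracts monocytes and dendritic cells, was lower with LAMZ at day 14. At day 7 the control libraries held 30.0 and 38.5 RPKM and the LAMZ libraries 26.6 and 32.3 RPKM, ranges that overlap (log2 fold change -0.20 ± 0.16, adjusted p = 0.442). At day 14 the control libraries held 30.5 and 31.3 RPKM and the LAMZ libraries 15.1 and 13.4 RPKM. The day 14 groups did not overlap (log2 fold change -1.07 ± 0.16, adjusted p = 0.00249). The difference between the days in the LAMZ effect was -0.86 ± 0.22 on the log2 scale and did not pass the threshold (adjusted p = 0.127).

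Cx3cl1 (fractalkine), a membrane-bound ligand of Cx3cr1 that also acts as an adhesion molecule, kept most of its level. It was at 13.8 and 12.9 RPKM in control and 9.25 and 9.38 RPKM in LAMZ at day 7, and at 18.1 and 17.7 RPKM in control and 12.2 and 15.0 RPKM in LAMZ at day 14. The groups did not overlap on either day. The day 7 difference just passed the threshold (-0.48 ± 0.12, adjusted p = 0.043) and the day 14 difference just missed it (-0.38 ± 0.12, adjusted p = 0.0623). The day 7 call was lost without any 1 of the day 7 or day 14 control libraries or of the day 7 LAMZ libraries (adjusted p from 0.0637 to 0.186) and with the libraries centred on their median (adjusted p = 0.0924) or quantile normalized (adjusted p = 0.0871).

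Ccl2 and Ccl7, which attract monocytes through Ccr2 and are made by stromal cells as well as by monocytes and macrophages, were in the stromal list but were nearly absent with LAMZ. Ccl2 was at 7.22 and 11.9 RPKM in the day 7 control libraries, and with LAMZ 1 read (0.206 RPKM) and none were found. At day 14 it was at 12.4 and 10.7 RPKM in control, and with LAMZ no read and 1 read (0.180 RPKM) were found. All control libraries lay far above all LAMZ libraries. The log2 fold change of Ccl2 was -3.23 ± 0.23 (adjusted p = 0.000172) at day 7 and -3.53 ± 0.23 (adjusted p = 5.79e-05) at day 14. In reads per mapped read the control level was 102 times (95% interval 17.8 to 4086) and 142 times (25.0 to 5647) that with LAMZ.

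Ccl7 stood at 13.2 and 7.21 RPKM in control and 0.293 and 0.479 RPKM with LAMZ at day 7. At day 14 it stood at 8.83 and 14.1 RPKM in control and 1.5 and 0.256 RPKM with LAMZ. The control libraries of a day differed from each other by more than the day means did, and every control library lay above every LAMZ library. Its log2 fold change was -2.97 ± 0.38 (adjusted p = 0.00245) at day 7 and -2.78 ± 0.38 (adjusted p = 0.0018) at day 14. The other stromal ligands stayed below the filter. Cxcl5, a ligand of the neutrophil receptor Cxcr2, had 7 reads in control and 1 with LAMZ at day 7 and 12 and 1 at day 14. Ccl11 (eotaxin) had at most 4 reads in any library. Cxcl1, another Cxcr2 ligand, had at most 3 by its fitted length, which gives a minimum.

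All 7 tested macrophage ligands were lower with LAMZ at day 14, and 3 of them (Ccl3, Ccl6 and Ccl9) at day 7. Their median log2 fold change was -1.10 at day 7 and -2.47 at day 14. The macrophage markers moved in the same direction, with 17 and 18 of the 19 lower at day 7 and day 14. Over all tested genes 8.49% and 16% were lower. All of these markers but Lyz2 and Cd68 stayed under 1 RPKM with LAMZ and passed the filter through control libraries only. The same held for the 7 tested ligands, so these counts are a description. The part of the markers in the chemokine results was not tested. All 12 macrophage ligands together summed to 10.3 and 13.7 RPKM in control and 0.465 and 1.18 RPKM with LAMZ at day 7, and to 44.9 and 32.2 RPKM in control and 0.970 and 0.540 RPKM with LAMZ at day 14.

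Ccl9, a myeloid ligand of Ccr1 that osteoclasts also make, had the highest read numbers of this list in the controls. It was at 3.48 and 3.03 RPKM in the day 7 control libraries, and with LAMZ at 0.0770 RPKM (1 read) and 0. At day 14 the control values were 5.69 and 6.17 RPKM and the LAMZ values 0.225 and 0.269 RPKM, 4 reads in each library. The groups were far apart and the replicates close. The log2 fold change was -2.04 ± 0.15 (adjusted p = 0.000245) at day 7 and -2.47 ± 0.15 (adjusted p = 4.56e-05) at day 14, and in reads per mapped read the day 14 control level was 24.1 times (95% interval 12.0 to 56.7) that with LAMZ.

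Ccl3 and Ccl4, the macrophage inflammatory proteins 1-alpha and 1-beta, had no read in any LAMZ library. Ccl3 was at 1.38 and 3.02 RPKM in the day 7 control libraries and at 8.02 and 8.66 RPKM in those of day 14. Its control mean was 2.63 times a floor of 3 reads per library on day 7 and 11.3 times on day 14. Such ratios to the floor leave out the spread and the counting error of the controls. In the limma fit both differences of Ccl3 passed (adjusted p = 0.00484 and 0.00011). Ccl4 was at 0.804 and 1.31 RPKM in control at day 7, and at 5.93 and 1.34 RPKM at day 14. The 2 day 14 control libraries thus differed widely for Ccl4, 21 reads against 4. On day 14 its control mean was 4.25 times the floor of 0.855 RPKM, while replicate 2 alone stood at 1.34 RPKM. The day 14 difference passed in the limma fit (log2 fold change -2.01 ± 0.45, adjusted p = 0.015). The fitted log2 fold change was -1.23 without day 14 control replicate 1, and the call was lost without either of the day 14 LAMZ libraries (adjusted p = 0.0692 and 0.0744). At day 7 its difference did not pass (-1.03 ± 0.45, adjusted p = 0.178), except without either of the day 14 control libraries (adjusted p = 0.0457 and 0.0337).

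Ccl8 and Ccl12, monocyte chemoattractants that lie next to each other in the genome, were likewise listed at 0 in all 4 LAMZ libraries. Ccl8 had no read in day 7 control replicate 1, and stood at 1.13 RPKM in replicate 2 and at 11.7 and 2.60 RPKM in the day 14 control libraries, 32 and 6 reads. The larger value came from the same day 14 library as that of Ccl4. The day 14 control mean of Ccl8 was 6.45 times the floor of 1.10 RPKM, while replicate 2 alone stood at 2.60 RPKM. Its day 14 difference passed in the limma fit (log2 fold change -2.75 ± 0.56, adjusted p = 0.0106). The fitted value was -1.85 without day 14 control replicate 1, and the call was lost without either day 14 LAMZ library. Ccl12 was at 1.98 and 0.538 RPKM in control at day 7 and at 6.59 and 4.94 RPKM at day 14. On day 14 the control mean of Ccl12 was 5.49 times the floor, and its difference passed in the limma fit (adjusted p = 0.000745). Its day 7 difference just missed the threshold (-1.10 ± 0.31, adjusted p = 0.0538). Ccl12 passed at day 7 without day 7 control replicate 2 (log2 fold change -1.57, adjusted p = 0.00948), with a pseudocount of 0.1 (adjusted p = 0.0193) and with libraries rescaled to the same sum (adjusted p = 0.026).

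Ccl6, a myeloid C-C ligand and neighbour of Ccl9, was at 1.63 and 1.45 RPKM in control and at 0 and 0.107 RPKM, 1 read, with LAMZ at day 7. At day 14 it was at 2.59 and 3.08 RPKM in control and 0 in both LAMZ libraries, with a control mean 9.02 times the floor of 3 reads. Both differences passed (adjusted p = 0.00523 and 0.000405), with the control and LAMZ libraries well separated.

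Cxcl16, the ligand of Cxcr6 and a scavenger receptor in its membrane-bound form, was the tested macrophage ligand with the most reads left. It was at 1.05 and 2.10 RPKM in control and 0.388 and 0.699 RPKM with LAMZ at day 7, and at 3.58 and 4.39 RPKM in control and 0.511 and 0.271 RPKM with LAMZ at day 14. The groups did not overlap on either day, and day 14 passed the test (-1.84 ± 0.24, adjusted p = 0.00157) while day 7 did not (-0.72 ± 0.24, adjusted p = 0.0944). Without day 7 control replicate 1 the day 7 difference was -1.01 and passed (adjusted p = 0.0485). Of the exon bases of Cxcl16, 18.3% overlap Zmynd15 on the opposite strand, and the strand setting of the counting was not given in the sources used here, so reads of the 2 genes cannot be told apart there. The macrophage ligands under the filter, Ccl17, Ccl22, Ccl24 and Cxcl2, had at most 5 recovered reads in any library, where those of Cxcl2 are a minimum.

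Ccl5 (RANTES), a ligand that interferon and NF-kB signalling induce, was at 0.829 and 2.11 RPKM in control and 0 in both LAMZ libraries at day 7. At day 14 it was at 3.49 and 5.76 RPKM in control and 0.357 and 0.213 RPKM, 2 reads and 1, with LAMZ. No LAMZ library reached a control library. The log2 fold change was -1.25 ± 0.30 (adjusted p = 0.0308) at day 7 and -2.10 ± 0.30 (adjusted p = 0.00214) at day 14. The day 7 call was lost without day 7 control replicate 2, either day 7 LAMZ library or either day 14 LAMZ library (adjusted p from 0.0522 to 0.135). The other interferon-induced ligands are the Cxcr3 ligands Cxcl9, Cxcl10 and Cxcl11 and did not pass the filter. Cxcl10 had 10 and 4 reads in the day 14 control libraries, 1.16 RPKM in the first, and a single read in the day 14 LAMZ libraries together. Cxcl9 had 5 and 4 reads in the day 14 control libraries and none with LAMZ at day 14.

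Ackr3 (Cxcr7), the atypical receptor that binds and removes Cxcl12, was the only tested member that was higher with LAMZ. At day 7 the control libraries held 5.47 and 11.0 RPKM and the LAMZ libraries 15.8 and 9.63 RPKM, so that the groups overlapped (log2 fold change 0.60 ± 0.31, adjusted p = 0.26). At day 14 the control libraries held 15.0 and 19.2 RPKM and the LAMZ libraries 42.4 and 47.8 RPKM. Both day 14 LAMZ libraries stood above every other library of the study. The log2 fold change at day 14 was 1.35 ± 0.31 (adjusted p = 0.0174), and in reads per mapped read Ackr3 was 2.65-fold (95% interval 2.40 to 2.92) higher with LAMZ. Leaving out any 1 of the 4 day 14 libraries kept the direction, with log2 fold changes from 1.19 to 1.52, but put the adjusted p between 0.0542 and 0.0963. With no filter on low values the adjusted p was 0.0599.

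Ackr4, the atypical receptor that removes the Ccr7 ligands Ccl19 and Ccl21, went the other way. It was at 2.51 and 1.77 RPKM in control and 1.22 and 0.571 RPKM with LAMZ at day 7, and at 4.15 and 4.40 RPKM in control and 1.18 and 1.29 RPKM with LAMZ at day 14. The groups were separate on both days. The log2 fold change was -0.74 ± 0.20 (adjusted p = 0.0501) at day 7, just outside the threshold, and -1.24 ± 0.20 (adjusted p = 0.0041) at day 14. Of the exon bases of Ackr4, 8.90% overlap Acad11 on the opposite strand. Ackr1, which carries chemokines across the endothelium, and Ackr2, which removes inflammatory C-C ligands, had at most 2 reads in any library.

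The day 14 levels of Cxcl12 and its 2 receptors are set side by side here, and their relation was not tested. The day 14 control libraries held 60.3 and 52.0 RPKM of Cxcl12 against 15.0 and 19.2 RPKM of Ackr3, and the day 14 LAMZ libraries held 6.90 and 6.64 RPKM of Cxcl12 against 42.4 and 47.8 RPKM of Ackr3. The signalling receptor Cxcr4 had 9 and 5 reads in the day 14 control libraries and 6 and 8 in the day 14 LAMZ libraries. Its control level was 1.08 times that with LAMZ, with a 95% interval of 0.479 to 2.45, so a difference within this interval was not detectable at this depth.

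The receptors of monocytes and macrophages were all under the filter. Ccr2, the receptor of Ccl2 and Ccl7, had 12 and 2 reads in the day 14 control libraries and 1 and 0 with LAMZ. Ccr1 had 6 reads in the day 14 control libraries together and none with LAMZ, and Ccrl2, which binds chemerin without signalling, had 7 and 1. At day 7 the 5 receptors of this list together had 7 reads in the control libraries and 7 in the LAMZ libraries. Day 14 control replicate 1, which held most of the Ccr2 reads, also held the larger values of Ccl4 and Ccl8.

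The receptors of lymphocytes and granulocytes gave 1 tested member. Ccr10, a receptor for Ccl27 and Ccl28, was at 1.54 and 0.669 RPKM in control and 0.408 and 0.334 RPKM with LAMZ at day 7, and at 0.432 and 1.03 RPKM in control and 0.199 and 0.949 RPKM with LAMZ at day 14. These were 2 to 10 reads a library, and neither difference passed (adjusted p = 0.292 and 0.768). Ccr7, the receptor that guides dendritic cells and T cells to lymph nodes, reached 1 RPKM in 1 library only. It had 31 reads (2.69 RPKM) in day 14 LAMZ replicate 1 and 8 reads (0.828 RPKM) in replicate 2, against 3 and 1 in the day 14 control libraries. The replicates of this group thus differed 31 to 8, and Ccr7 was not tested. No other receptor of this list had more than 7 recovered reads in a library, where those of Ccr6 and Ccr9 are a minimum.

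Among the lymphoid and epithelial ligands, Ccl27a and Ccl19 were tested and neither passed on either day. Ccl27a, a skin ligand of Ccr10, was at 1.90 and 2.06 RPKM in control and 0.986 and 0.807 RPKM with LAMZ at day 7 (log2 fold change -0.65 ± 0.21, adjusted p = 0.0828), and at 1.33 and 2.51 RPKM in control and 1.30 and 1.38 RPKM with LAMZ at day 14 (-0.29 ± 0.21, adjusted p = 0.357). The day 7 groups did not overlap and the day 14 groups did. Without either day 14 control library the day 7 difference passed (adjusted p = 0.0425 and 0.046). Ccl19, which attracts Ccr7-bearing cells, was at 0 in both day 7 control libraries, at 0 and 0.443 RPKM with LAMZ at day 7, at 1.29 and 1.53 RPKM in control at day 14 and at 0.198 and 1.18 RPKM with LAMZ at day 14. Ccl19, Ccl21a, Ccl21b, Ccl27a and Ccl27b have near-identical copies in the mouse genome, so the share of reads given to each is uncertain, and Ccl21b was listed at 1.39 RPKM in a single library. Ccl28, an epithelial ligand, had 5 reads in control and 10 with LAMZ at day 7 and 8 and 20 at day 14, a day 14 ratio of 2.31 (95% interval 0.974 to 6.06).

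The plot of reads for the members under the filter gives 13 of those with at least 5 reads in a library. Over the 38 members under the filter with known reads, the 2 day 7 control libraries held 68 reads in all and the 2 day 7 LAMZ libraries 58. The day 14 control libraries held 195 and the day 14 LAMZ libraries 115, of which 39 were Ccr7.

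**Figure D2:**
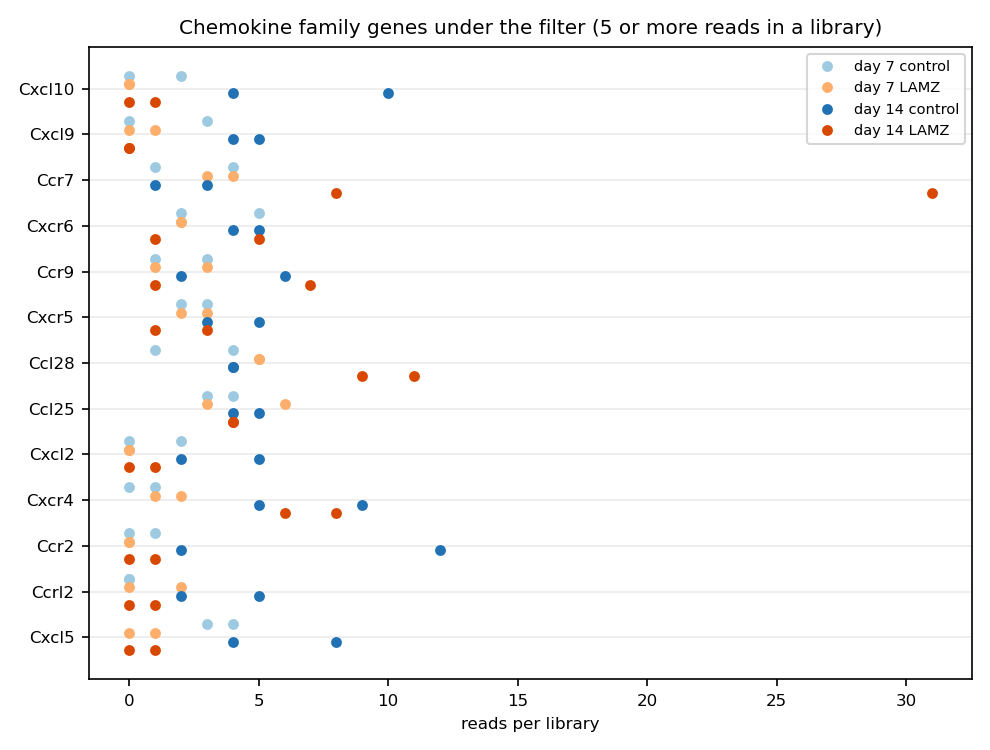
Reads per library for 13 members under the filter that had 5 or more reads in some library, with 1 point per library and colours for the 4 groups. Ccr2, Cxcl10 and Cxcl5 reach their highest counts in day 14 control libraries, and Ccr7 reaches 31 reads in 1 day 14 LAMZ library.

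To set the members beside marker genes of known cell types, the mean LAMZ level was expressed as a percent of the mean control level. Macrophage markers kept a median of 0.356% at day 7 (range 0 to 12.5%) and 0.546% at day 14 (range 0 to 4.91%). Osteoblast and mesenchyme markers kept a median of 125% (range 40.9 to 385%) and 117% (range 31.5 to 591%). Of the tested members, 7 fell in the macrophage range on both days, namely Ccl2, Ccl3, Ccl4, Ccl6, Ccl8, Ccl9 and Ccl12. All 7 passed the filter through control libraries only. The range starts at 0, so any member without LAMZ reads falls in it, and these placements are a description. At day 7 Ccl4 and Ccl8 had only 5 and 2 reads in the control libraries together. Ccl5 and Ccl7 lay in the macrophage range at day 7 and just above it at day 14, at 6.17% and 7.65%. Cx3cl1, Cxcl14, Ackr3 and Ccl27a lay in the osteoblast and mesenchyme range on both days, at 69.6%, 86.1%, 154% and 45.3% at day 7 and 75.9%, 46.1%, 263% and 69.6% at day 14. Cxcl12 (23.3% and 12.0%) and Cxcl16 (34.4% and 9.81%) lay between the 2 ranges on both days. Ackr4 lay in the mesenchyme range at day 7 (41.8%) and just below it at day 14 (28.9%), and Ccr10 below it at day 7 (33.6%) and in it at day 14 (78.8%). Ccl19, which had no control reads at day 7, lay in it at day 14 (48.9%). These percentages are means of 2 libraries and carry no test, and for the low members they rest on few reads.

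**Figure D3:**
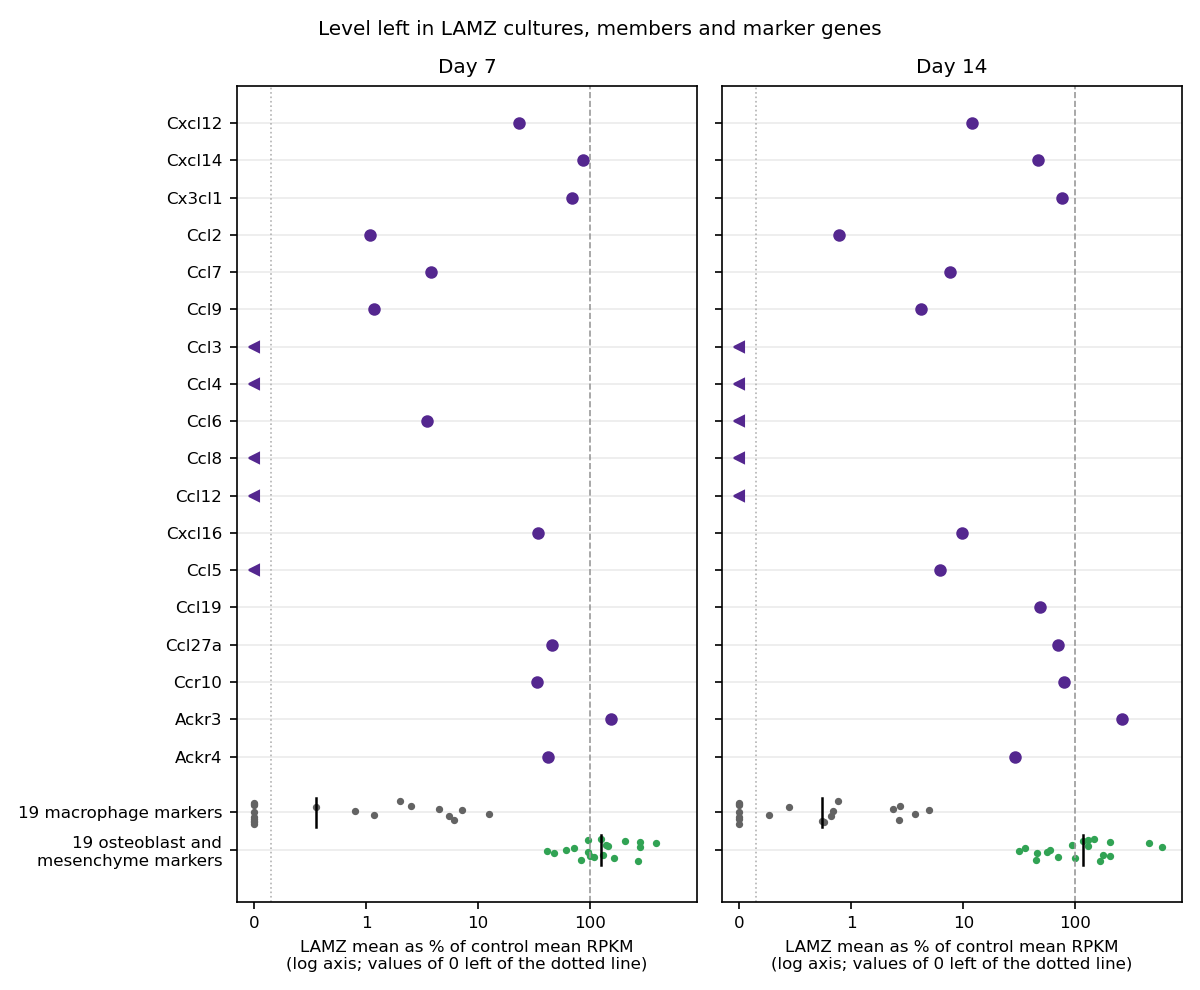
Mean RPKM with LAMZ as a percent of the mean in control, at day 7 (left) and day 14 (right), on a log axis with values of 0 drawn left of the dotted line, as triangles for the 18 tested members; grey and green points are the 19 macrophage and 19 osteoblast and mesenchyme markers, with a black bar at their median, and the dashed line marks 100%. Ccl19 has no day 7 point because its control level was 0, and Ccl2 and Ccl7 lie with the macrophage ligands while Cxcl14, Cx3cl1 and Ackr3 lie among the mesenchyme markers.

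By position, 9 of the 13 lower members at day 14 lay in 2 clusters on chromosome 11 (GRCm38, GENCODE M21). The first, chr11:82035571-82305690, holds Ccl2, Ccl7, Ccl11, Ccl12, Ccl8 and Ccl1, of which 4 were tested and all 4 were lower at day 14. The second, chr11:83525778-83664683, holds Ccl5, Ccl9, Ccl6, Ccl3 and Ccl4, of which all 5 were tested and all 5 were lower at day 14. Over all tested genes 16% were lower at day 14. Ccl2, Ccl8 and Ccl12 of the first cluster and all 5 of the second passed the filter through control libraries only. For these, being tested and being lower were tied, so the counts are a description. Cxcl12 (chr6:117168535-117181367), Cxcl14 (chr13:56288643-56296551) and Ackr3 (chr1:90203980-90216751) stand alone, and Cx3cl1 lies between Ccl22 and Ccl17 on chromosome 8. The C-X-C cluster of Cxcl1, Cxcl2, Cxcl3, Cxcl5 and Cxcl15 on chromosome 5 held no tested member.

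The 250 bases before the transcription start are shown for 5 members chosen after their values were seen, namely Ccl12, Ccl8 and Ccl9 from the 2 clusters, Cxcl12, which was lower but well above 0, and Ackr3, which was higher. They come from RefSeq (GRCm38.p6), where 43 of the 58 members had an entry. Capitals mark matches on either strand to TATAAA (the TATA box), GGG then any 2 bases then TTTCC (an NF-kB site), GAAA then any 2 bases then GAAA (an interferon response element), GAGGAAGT (a PU.1 site) or TGANTCA (an AP-1 site), where N is any base. The TATAAA matches of Ccl9 at 94 and 92 bases before the start, on opposite strands, overlap.
Ccl12, chr11:82101595-82101844, plus strand: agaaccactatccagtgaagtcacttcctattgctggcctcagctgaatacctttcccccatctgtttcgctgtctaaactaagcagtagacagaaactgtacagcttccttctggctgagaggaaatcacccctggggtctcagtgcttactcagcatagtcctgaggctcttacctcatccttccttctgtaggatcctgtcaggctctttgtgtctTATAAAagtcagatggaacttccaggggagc
Ccl8, chr11:82114935-82115184, plus strand: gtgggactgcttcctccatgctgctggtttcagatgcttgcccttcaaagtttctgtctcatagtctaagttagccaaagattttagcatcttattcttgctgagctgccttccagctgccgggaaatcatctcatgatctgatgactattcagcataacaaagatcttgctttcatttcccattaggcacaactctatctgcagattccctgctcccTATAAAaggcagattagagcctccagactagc
Ccl9, chr11:83578637-83578886, minus strand: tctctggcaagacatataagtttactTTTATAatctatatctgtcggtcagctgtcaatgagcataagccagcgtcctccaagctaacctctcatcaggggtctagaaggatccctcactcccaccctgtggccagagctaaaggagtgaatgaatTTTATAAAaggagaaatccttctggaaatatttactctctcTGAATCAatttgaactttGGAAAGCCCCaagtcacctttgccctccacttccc
Cxcl12, chr6:117168285-117168534, plus strand: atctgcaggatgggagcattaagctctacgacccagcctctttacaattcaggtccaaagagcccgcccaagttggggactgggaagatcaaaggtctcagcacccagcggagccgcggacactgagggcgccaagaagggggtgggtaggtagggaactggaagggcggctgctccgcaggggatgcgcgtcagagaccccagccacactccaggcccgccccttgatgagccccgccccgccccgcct
Ackr3, chr1:90203730-90203979, plus strand: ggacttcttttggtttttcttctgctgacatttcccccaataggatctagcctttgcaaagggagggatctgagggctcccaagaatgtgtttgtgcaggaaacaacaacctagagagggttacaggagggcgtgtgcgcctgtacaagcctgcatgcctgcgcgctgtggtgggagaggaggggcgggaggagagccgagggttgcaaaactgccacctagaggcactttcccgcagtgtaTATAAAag

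The TATAAA of Ccl12 and Ccl8 began 31 and 32 bases before the start. Ccl9 had a match to the NF-kB letters 35 bases and to the AP-1 letters 53 bases before the start. Cxcl12 had none of the 5 motifs in this window, nor had Ccl3 and Ccl6 of the second cluster, which are not shown, and this says only that these letters are not there. Its window held 64.4% G and C and 14 CpG pairs, while those of Ccl12, Ccl8 and Ccl9 held 48.4%, 44.8% and 43.6% and 1, 1 and 2 CpG pairs, against medians of 52.4% and 6 over all 32851 promoters. TATAAA occurred in 12.4% of all promoters and in 13 of the 52 windows of members, the NF-kB letters in 1.41% and 6, the interferon letters in 2.98% and 3, the PU.1 letters in 2.44% and 1, and the AP-1 letters in 6.75% and 6. A match describes letters and is no evidence of binding.

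From day 7 to day 14 in control cultures, 4 of the 18 tested members rose, where 2.46% of all tested genes rose. The number that fell was 0, also at an unadjusted p under 0.05, where 2.4% of all tested genes fell by adjusted p. Ccl4, Ccl5, Ccl8, Ccl12, Ccl19 and Ccr10 reached 1 RPKM in only 1 library outside the day 14 controls, so the filter passed them through these. The counts are thus a description and cannot be read against all tested genes. Cxcl12 rose 2.59-fold between the group means (log2 fold change 1.33 ± 0.14, adjusted p = 0.00553), Ccl3 3.79-fold (1.59 ± 0.24, adjusted p = 0.0145), Ccl12 4.59-fold (1.65 ± 0.31, adjusted p = 0.0281) and Ccl9 1.82-fold (0.70 ± 0.15, adjusted p = 0.0453). Macrophage markers had a median day 14 to day 7 ratio of 2.46 (range 1.06 to 3.97) in control, with 15 of 19 higher, and osteoblast and mesenchyme markers 1.02 (range 0.833 to 7.66), with 2 of 19 higher. The 7 tested macrophage ligands had ratios from 1.82 to 12.6. The largest was that of Ccl8, which rests on 2 reads in the day 7 control libraries and did not pass (adjusted p = 0.0676). Ccl4, Ccl6 and Cxcl16 did not pass either (adjusted p = 0.25, 0.123 and 0.0623). Ccl2 and Ccl7 had ratios of 1.21 and 1.12, with overlapping days, and their changes did not pass (log2 fold change 0.28 ± 0.23 and 0.17 ± 0.38, adjusted p = 0.523 and 0.834). Cxcl14 had a ratio of 0.903 (adjusted p = 0.682) and Cx3cl1 one of 1.34 (adjusted p = 0.116). Without day 14 control replicate 1 only Cxcl12 passed (log2 fold change 1.23, adjusted p = 0.0424), and without day 7 control replicate 2 the count was 6. Ccl9 was lost whichever single library was left out, Ccl3 without either day 14 control library (adjusted p = 0.0985 and 0.0829), and Ccl12 without any day 14 control or LAMZ library (adjusted p from 0.054 to 0.177).

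With LAMZ, 3 of the 18 tested members changed from day 7 to day 14. Ackr3 (log2 fold change 1.78 ± 0.31, adjusted p = 0.00955) and Cx3cl1 (0.49 ± 0.12, adjusted p = 0.0358) rose, where 5.1% of all tested genes rose, and Cxcl14 fell (-0.99 ± 0.16, adjusted p = 0.00659), where 9.26% of all tested genes fell. Cxcl12 changed by 0.36 ± 0.14 (adjusted p = 0.115). All 3 calls were lost without day 7 LAMZ replicate 2 and without day 14 LAMZ replicate 2, which leaves 0 called, and that of Cx3cl1 also without day 7 LAMZ replicate 1 or either day 14 control library (adjusted p from 0.0528 to 0.147). The macrophage markers had a median log2 fold change of 0 in this comparison, and Ccl3, Ccl4, Ccl8 and Ccl12 stayed at 0. These 2 comparisons over time use the same libraries as the LAMZ comparisons, so they are given side by side and not as separate evidence.

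**Figure D4:**
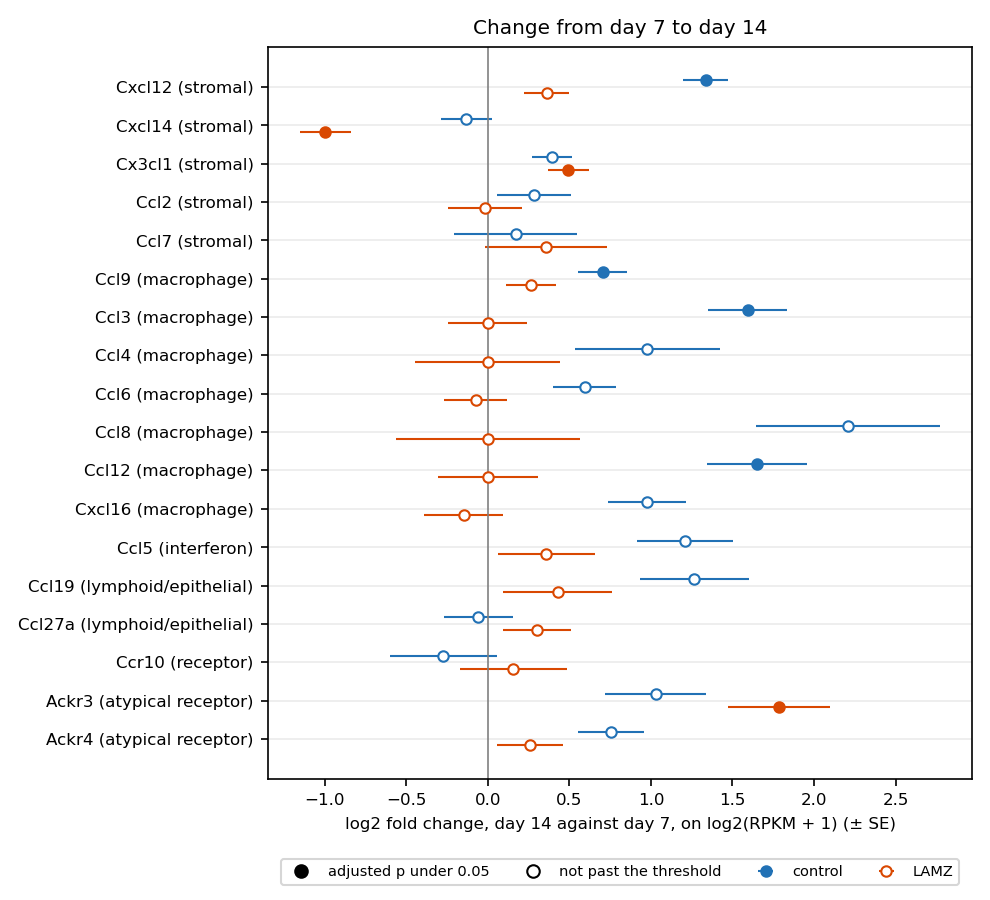
Log2 fold change from day 7 to day 14 on the log2(RPKM + 1) scale for the 18 tested members in control (blue) and LAMZ (orange) cultures, with bars of 1 SE and filled points for an adjusted p under 0.05. In control Cxcl12, Ccl3, Ccl12 and Ccl9 are filled and to the right of 0, and with LAMZ Ackr3 and Cx3cl1 are filled to the right and Cxcl14 to the left.

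The difference between the days in the LAMZ effect was tested directly. By limma, 0 of the 18 members passed, where 0.623% of all tested genes passed, and 7 had an unadjusted p under 0.05. All 7 (Cxcl12, Ccl3, Cxcl14, Ccl12, Cxcl16, Ccl8 and Ccl6) had the more negative fitted difference at day 14. The share of all genes at this unadjusted threshold was not taken, so the count cannot be read as a result. Below 0 were 13 of the 18 members and 7141 of all 12514 tested genes. Ccl3, Ccl6, Ccl8, Ccl12 and Cxcl16 passed the filter through control libraries only. Ccl3, Ccl8 and Ccl12 were at 0 in all 4 LAMZ libraries, so their values only restate the rise of the controls. Ccl6 had 1 read in the LAMZ libraries. Such values cannot show a stronger LAMZ effect at day 14. The lowest adjusted p-values were those of Cxcl12 (-0.97 ± 0.19, adjusted p = 0.0741) and Ccl3 (-1.59 ± 0.34, adjusted p = 0.0897). That more members were lower at day 14 than at day 7 is therefore not shown to be a difference between the days for any single member.

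Related genes outside the symbol rule were read from lists of textbook genes. Pf4 (Cxcl4), a platelet and macrophage chemokine, was at 11.0 and 12.8 RPKM in control and 0 with LAMZ at day 7, and at 26.3 and 27.0 RPKM in control and 0.713 and 0 RPKM with LAMZ at day 14. Rarres2, which encodes the chemoattractant chemerin, was at 6.29 and 5.65 RPKM in control and 1.15 and 1.16 RPKM with LAMZ at day 7, and at 20.3 and 20.0 RPKM in control and 2.78 and 3.62 RPKM with LAMZ at day 14. Both were lower on both days (Pf4 adjusted p = 0.000116 and 2.35e-05, Rarres2 0.00029 and 2.92e-05), but Pf4 passed the filter through its control libraries only. Mif, a cytokine that also binds Cxcr2 and Cxcr4, was higher on both days (log2 fold change 0.88 ± 0.18 and 0.96 ± 0.18, adjusted p = 0.0191 and 0.00804).

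The counts of the following lists stand beside 8.49% lower and 4.35% higher at day 7 and 16% lower and 6.96% higher at day 14 over all tested genes, and several lie near these shares. Some listed genes, among them Tnf, Spi1 and Rac2, stayed under 1 RPKM in every LAMZ library and passed the filter through control libraries only. The counts of lower genes are therefore a description. Among 12 tested inducing cytokines and cytokine receptors, 6 were lower at day 7 and 10 at day 14. Tnf, an inducer of many chemokines, had the largest day 14 change (-1.57 ± 0.24, adjusted p = 0.00305), followed by Il1r1, the receptor of interleukin-1 (-1.40 ± 0.11, adjusted p = 0.000164), and Tlr2, a sensor of bacterial lipoproteins (-1.34 ± 0.27, adjusted p = 0.00942). Of 16 tested transcription factors, 5 were lower and 1 higher at day 7, and 4 were lower at day 14. Spi1, which encodes the myeloid factor PU.1, was lower on both days (-1.55 ± 0.30 and -2.62 ± 0.30), as was Nfkbia, an inhibitor and target of NF-kB (-0.74 ± 0.13 and -1.02 ± 0.13). Hif1a was the factor that was higher at day 7 (0.55 ± 0.14, adjusted p = 0.0388).

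Of 22 tested genes of receptor signalling, 3 were lower and 1 higher at day 7, and 11 were lower at day 14. The largest day 14 changes were those of Arrb2, a beta-arrestin that ends receptor signalling (-2.13 ± 0.14, adjusted p = 6.42e-05), Rac2, a GTPase of blood cells (-2.05 ± 0.24, adjusted p = 0.000927), and Grk5, a receptor kinase (-1.56 ± 0.19, adjusted p = 0.00119). Elmo1 was higher at day 7 (1.05 ± 0.19, adjusted p = 0.0124). Of 10 tested genes of chemokine processing and presentation, 2 were higher at day 7, and 3 were higher and 2 lower at day 14. Gpc1, a heparan sulfate proteoglycan, was higher on both days (1.07 ± 0.12 and 1.67 ± 0.12). At day 14 the matrix metalloproteinases Mmp9 (1.48 ± 0.28, adjusted p = 0.0075) and Mmp13 (1.28 ± 0.22, adjusted p = 0.0052), which can cleave chemokines, were higher, and Tnfaip6, which binds chemokines, was lower (-1.20 ± 0.20, adjusted p = 0.00442).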

How the data were processed

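RNA of 8 libraries (4 groups of 2) was sequenced on an Ion Proton instrument. According to the methods and labels, the authors mapped reads to mm10 with CLC Genomics Workbench and deposited 1 table of RPKM per gene for each library. The counting strand, the gene annotation and the software version are not given in the sources used here. The 4 entries with a symbol listed more than once were left out. Mapped reads per library were inferred from the step of the low RPKM values and GENCODE M21 transcript lengths, with 93.3 to 95.9% of the checked values whole within 0.05 of a read. Reads were recovered for 40 members from the annotated length and for 9 from a length fitted to their own values, and for Ccl21a and Ccl21b not at all. The fitted length was the shortest that gave whole reads, so the reads of these 9 are a minimum. Genes that reached 1 RPKM in 2 or more libraries entered limma 3.58.1 (R 4.3.3) on log2(RPKM + 1) over all 8 libraries, with a mean-variance trend and Benjamini-Hochberg adjustment at 0.05. The exact permutation test of 2 libraries against 2 cannot pass this threshold. Intervals of read ratios are exact binomial (95%, scipy 1.17.1) and cover counting error only, and a group at 0 was set against a floor of 3 reads per library. The script was tested on simulated data.

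Every member that passed the filter was named with its value in each library. Members below it are given by counts and range, and by value where a library reached 1 RPKM or the member defines its role. For genes outside the symbol rule, counts are given with at most 3 genes for each list and direction. The members and the gene lists were chosen with earlier results of these data known, and the lists are no independent evidence. The alternatives were pseudocounts of 0.1 and 5, no filter and a filter of 5 RPKM, 3 other scalings, 2 forms of replicate block, no trend, and each library left out in turn. Some single genes of the lists are not reported here.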

Additional observations from a re-analysis of the deposited data

How the results depend on the processing

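The counts of called members were 8 at day 7 and 14 at day 14 (LAMZ against control), 0 for the difference between the days, 4 for time in control and 3 for time with LAMZ. In the same order, 12.8%, 23%, 0.623%, 4.86% and 14.4% of all tested genes were called. For members that passed a filter through control libraries only, being tested and being called were not independent. The counts by setting are therefore a description. A filter of 5 RPKM left 8 tested members, all 8 called at day 14, where 33% of all genes tested under it were called. Of these 8, Ccl2, Ccl3, Ccl7 and Ccl9 reached 5 RPKM in control libraries only. This filter gave 1 for the difference between the days (2.05% of all genes) and 2 for time in control (10.1%). A pseudocount of 0.1 gave 1 for time in control (3.28% of all genes). One of 5 gave 2 for the difference between the days (1.33%) and 8 for time in control (5.79%). No filter gave 6 at day 7 (3.18% of all genes), 12 at day 14 (7.41%), none of them higher, and 1 for time in control (0.678%). Rescaling to the same sum moved the median log2 fold change of all genes to -0.31 at day 7 and -0.43 at day 14. It gave 12 at day 7 (28.7% of all genes), 15 at day 14 (46.3%), 1 for the difference between the days (0.807%) and 11 for time in control (9.07%). The share of all called genes that were higher went from 33.9% to 8.69% at day 7 and from 30.3% to 8.16% at day 14. This share was 53.5% and 56.3% with the median and 45.7% and 47.9% with quantiles. The members' split stayed at 0 higher at day 7 and 1 higher at day 14 under these 3 scalings. Leaving out 1 library gave 6 to 9 at day 7 (6 without day 7 LAMZ replicate 1, where Ccl5 and Cx3cl1 were lost), 11 to 14 at day 14, 0 to 0 for the difference, 1 to 6 for time in control and 0 to 3 for time with LAMZ. Where an arm was left with 1 library, that library was taken to vary like the other groups.

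Same-numbered libraries shared only a number (correlation of their deviations -0.0166 at day 7 and 0.0158 at day 14). Either replicate block gave 8, 14, 0, 3 and 2, and took the adjusted p of Cx3cl1 at day 7 to 0.0649 across all groups and 0.108 within days. At day 7 Ackr4 passed within days (0.0438) and Ccl12 across all groups (0.0482).

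Of single members, signs turned only for differences that did not pass. For time in control, rescaling to the same sum gave 0.12 for Ccl27a and 0.12 for Cxcl14, and leaving out 1 library gave -0.044 to 0.61 for Ccl2, -0.23 to 0.57 for Ccl7, -0.35 to 0.24 for Ccl27a, -0.58 to 0.029 for Ccr10 and -0.31 to 0.044 for Cxcl14. For LAMZ at day 14, Ccr10 stood at 0.034 with the median and 0.16 with quantiles, and leaving out 1 library gave -0.51 to 0.20 for Ccr10 and -0.59 to 0.0039 for Ccl27a. The cause was not tested. Cxcl12 passed on both days and for time in control under every alternative. Members with few reads were limited by depth.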
